A study of Mus musculus with 13 samples.

Results

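The enzymes of the urea cycle and of arginine breakdown were followed through mouse small intestinal crypts and organoids in which the Polycomb genes Eed or Ezh2 had been deleted. The set holds 8 genes, namely Cps1, Nags, Otc, Ass1, Asl, Arg1, Arg2 and Oat, chosen by name from the 21420 genes shared by both deposited count tables. The set was built around Cps1 because its transcript fell steeply in Eed KO crypts in earlier work on these libraries. The comparison of Eed KO with WT crypts is therefore given for these genes as a description, without p-values. All 8 genes were found, and all 8 passed the low-count filter in each of the 4 comparisons.

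There were 13 RNA-seq libraries in 5 groups. The knockout crypts were 3 Eed-/- libraries (Eed KO) and 3 Ezh2-/- libraries (Ezh2 KO), set against 3 WT crypt libraries, all of mixed C57BL/6-FVB background. The mice received beta-naphthoflavone for 6 weeks from 6 weeks of age, so they were 12 weeks old at the end. Crypts came from the small intestine after villi had been scraped away. The organoids, cultures grown from isolated crypts, were 2 Eed KO libraries of C57BL/6-FVB background against 2 WT libraries of FVB background, all given beta-naphthoflavone for 10 days. AhCre, a Cre recombinase driven by a promoter that beta-naphthoflavone switches on, is named for the WT and KO organoids and for the crypts of run 440, so those WT samples carry Cre and the inducer too. Libraries were sequenced in run 385 or run 440. Eed KO and WT crypts had 2 libraries in run 385 and 1 in run 440, the Ezh2 KO crypts were all in run 440, and the organoids were all in run 385. The labels do not say that each library came from its own animal or culture, and p-values therefore cover no more than the variation among the libraries at hand.

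The urea cycle turns ammonia into urea in the liver. NAGS makes the activator that CPS1 needs, CPS1 makes carbamoyl phosphate in the mitochondrion, and OTC joins this to ornithine to give citrulline. ASS1 and ASL then turn citrulline into arginine, and the arginases ARG1 and ARG2 split arginine into urea and ornithine. In the small intestine the mitochondrial steps are known for making citrulline from glutamine and proline, with OAT supplying ornithine, and the citrulline is passed on to the kidney. Eed and Ezh2 encode core subunits of Polycomb repressive complex 2, which places a repressive methyl mark on a histone.

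In the deposited annotation (GRCm38) Cps1 (ENSMUSG00000025991) lies on chromosome 1 from 67123026 to 67231259. Otc (ENSMUSG00000031173) lies on the X chromosome from 10252305 to 10321024, and Nags (ENSMUSG00000048217) on chromosome 11 from 102145513 to 102149477. Ass1 (ENSMUSG00000076441) is on chromosome 2 from 31470207 to 31520672 and Asl (ENSMUSG00000025533) on chromosome 5 from 130011258 to 130025132. Arg1 (ENSMUSG00000019987) is on chromosome 10 from 24915208 to 24927470, Arg2 (ENSMUSG00000021125) on chromosome 12 from 79130777 to 79156301, and Oat (ENSMUSG00000030934) on chromosome 7 from 132557475 to 132576398. Counts are reads over a whole gene and do not separate exons or transcript forms. In the GENCODE M21 annotation Arg2 shares 285 exonic bases with Vti1b and Nags shares 443 with the antisense gene Gm11586, both on the opposite strand. The libraries are stranded, but no source used here gives the strand setting of the counting, so reads of these pairs may not be told apart.

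The RefSeq promoter table (GRCm38.p6) held 4 of the 8 genes, Otc, Nags, Ass1 and Oat. The 250 bases before the RefSeq start are printed for Otc, Nags and Ass1, the 3 genes past the threshold in Eed KO organoids, with CG pairs in capitals, since CG-rich promoters are the usual places of Polycomb binding. Each is written 5′ to 3′ along the gene.
Otc (chrX:10252055-10252304, plus strand): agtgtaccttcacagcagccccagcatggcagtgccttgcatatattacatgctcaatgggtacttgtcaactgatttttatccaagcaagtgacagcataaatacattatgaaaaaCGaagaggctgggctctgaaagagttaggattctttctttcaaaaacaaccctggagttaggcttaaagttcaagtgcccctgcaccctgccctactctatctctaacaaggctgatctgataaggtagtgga
Nags (chr11:102145263-102145512, plus strand): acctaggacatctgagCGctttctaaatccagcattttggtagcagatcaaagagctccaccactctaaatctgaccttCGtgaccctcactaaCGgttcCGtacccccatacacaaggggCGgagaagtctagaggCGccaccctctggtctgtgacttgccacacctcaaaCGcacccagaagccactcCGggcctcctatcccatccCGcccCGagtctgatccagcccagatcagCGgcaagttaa
Ass1 (chr2:31470020-31470269, plus strand): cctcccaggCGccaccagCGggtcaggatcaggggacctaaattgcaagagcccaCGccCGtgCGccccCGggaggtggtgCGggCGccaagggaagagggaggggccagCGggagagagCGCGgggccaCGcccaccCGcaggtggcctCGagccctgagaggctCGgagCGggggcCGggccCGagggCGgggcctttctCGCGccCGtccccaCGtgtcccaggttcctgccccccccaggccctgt
The Otc window had 1 CG pair, the Nags window 11 and the Ass1 window 23, and the Oat window, not printed, had 14. The median over 32851 promoter windows of the same length was 6, and 92.1% held at least 1 CG pair. Of all windows, 18.8% had no more CG pairs than Otc and 88.0% no more than Ass1. Of the other motifs searched on both strands, TATAA was in none of the 4 windows and in 22.8% of all windows, and CCAAT occurred 2 times in the Oat window and in 33.8% of all windows. The Ass1 window runs into the deposited gene, whose start lies upstream of the RefSeq one.

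Library totals ran from 11421666 to 18300644 counts. Eed transcripts stood at 15.9, 25.0 and 16.3 CPM (read counts relative to trimmed-mean library size over all 13 libraries) in Eed KO crypts, against 50.04 to 60.3 in WT crypts. In Eed KO organoids they were 19.2 and 30.5 CPM, against 62.3 and 73.4 in WT organoids. Ezh2 transcripts were 17.7 to 21.8 CPM in Ezh2 KO crypts and 72.1 to 95.2 in WT crypts. The deleted genes were thus lower in each KO library than in every WT library of the same kind, with transcripts left in all. Xist and the Y-linked Ddx3y showed that sex differs between groups. In run 385 the Eed KO crypts had the female pattern and the WT crypts the male one, all run 440 libraries were female, and the Eed KO organoids were male against female WT organoids. Among the crypts of run 385 sex thus differs as genotype does, and their effects cannot be told apart within that run.

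Cps1 was the most strongly lowered of the 8 genes in Eed KO crypts. It stood at 28.5 and 54.6 CPM in the Eed KO crypts of run 385 and at 520.4 in that of run 440, against 4206 and 3563 CPM in the WT crypts of run 385 and 3589.8 in that of run 440. The 3 Eed KO values lay below all WT values, and the run 440 library stood about an order of magnitude above the other Eed KO libraries. Means were 201.2 ± 276.8 CPM in Eed KO crypts and 3786 ± 363.5 CPM in WT crypts (SD, n = 3 each). The fitted log2 fold change, from edgeR with run as a term, was -5.43 ± 0.82 (SE). Within run 385 the Eed KO mean was 93.5-fold below the WT mean, and within run 440 the single Eed KO library was 6.90-fold below the single WT library. Cps1 alone took 0.00297% to 0.0585% of all counts in Eed KO crypts, against 0.320% to 0.390% in WT crypts. In bulk RNA, fewer cells that make Cps1 and less Cps1 RNA per cell cannot be told apart.

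In organoids Cps1 was lower by far less. It stood at 1484 and 2158 CPM in Eed KO organoids, against 2674 and 3192 CPM in WT organoids, and the groups did not overlap. The log2 fold change was -0.69 ± 0.22 with a 95% interval from -1.21 to -0.17, which did not pass the threshold (edgeR adjusted p = 0.0782). It passed with DESeq2 (adjusted p = 0.0073). With 1 organoid library left out, the log2 fold change ran from -0.99 without Eed KO library 385_2 to -0.43 without Eed KO library 385_1. The difference between the crypt and the organoid effect was not tested. Ezh2 KO crypts had 3335, 3570.4 and 3294 CPM of Cps1, against the same 3 WT crypts, and their range overlapped the WT range.

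**Figure D1:**
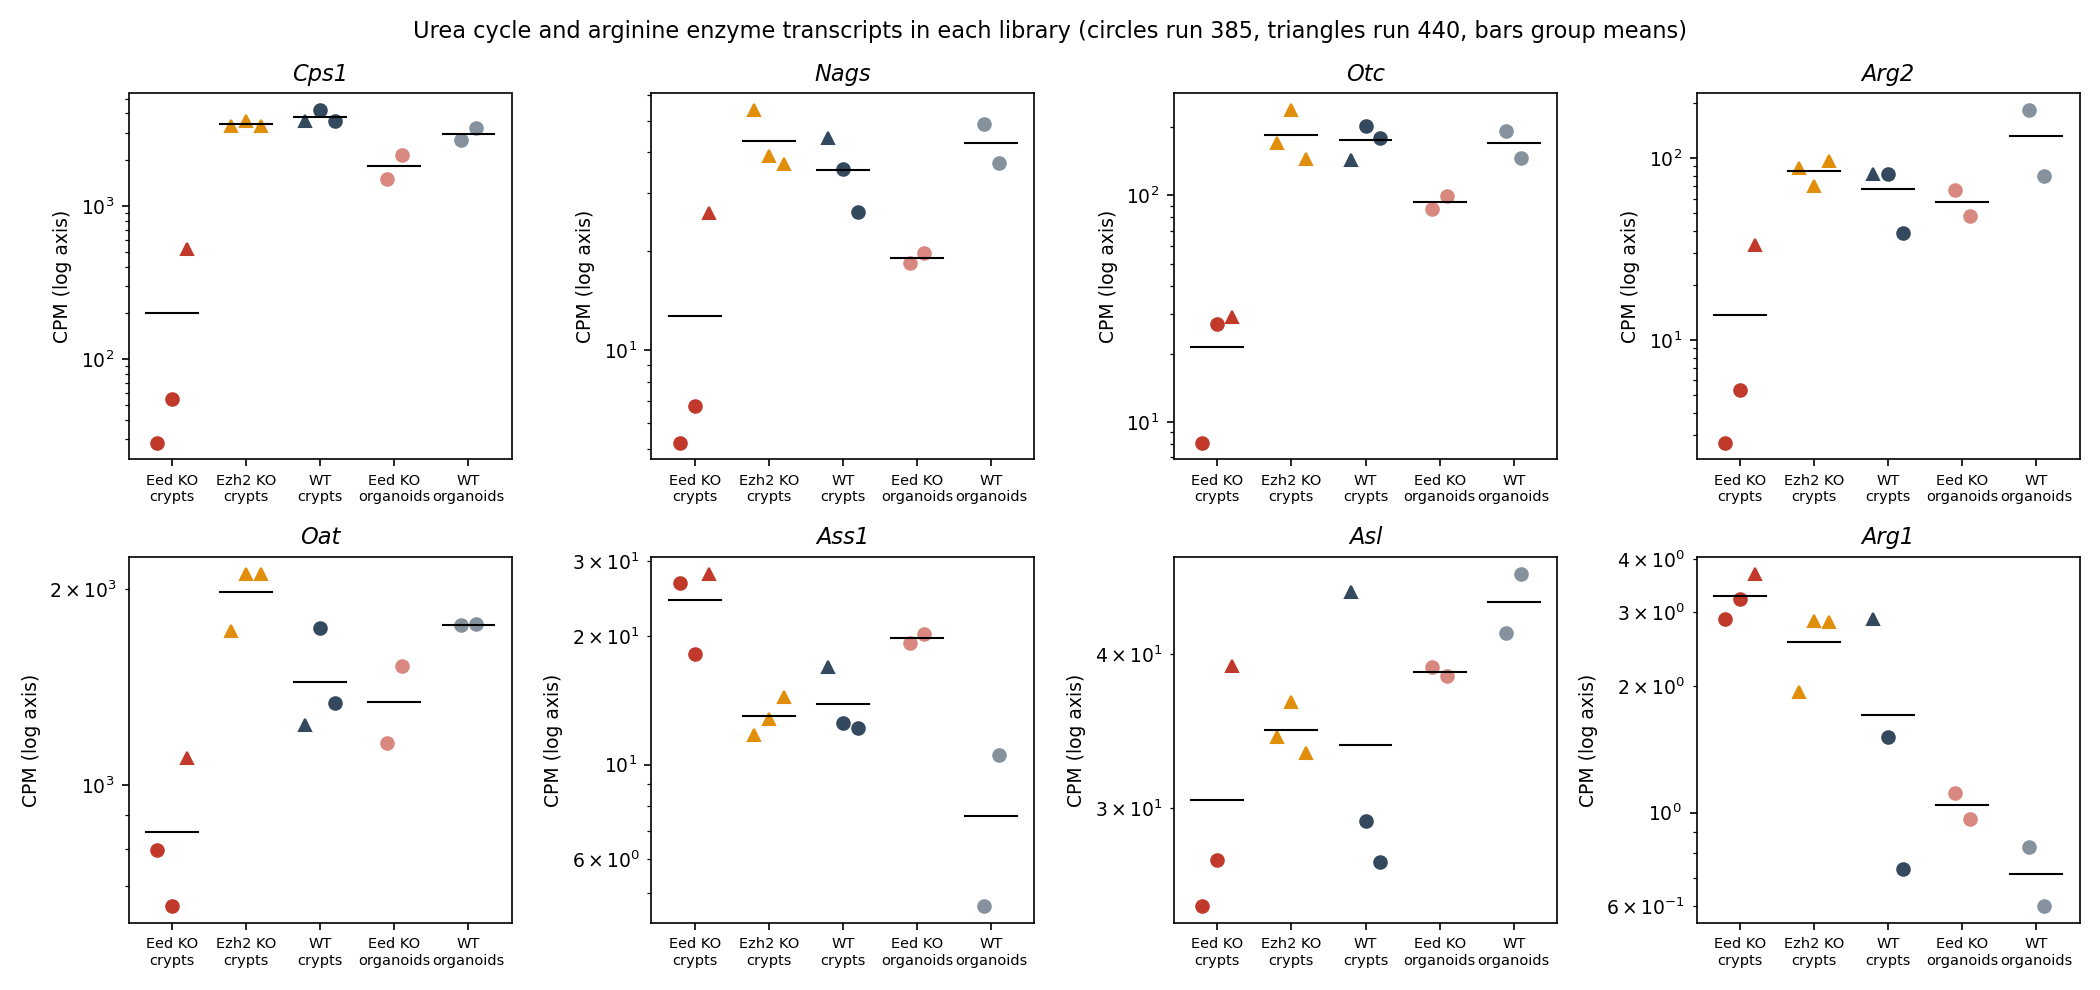
Transcript levels of the 8 enzymes in each library, in CPM on log axes, by group. Points are libraries (circles run 385, triangles run 440) and bars are group means. Cps1 is between 28.5 and 520.4 CPM in Eed KO crypts and at 1484 CPM or more in every other library.

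The activator and the next step of the pathway were also lower. Otc, the enzyme that makes citrulline, had 8.12, 27.2 and 29.0 CPM in Eed KO crypts (the last in run 440), against 202.4, 179.6 and 143.9 CPM in WT crypts. Every Eed KO library was below every WT library, and the log2 fold change was -3.05 ± 0.45. The fall was present within both runs, at 10.8-fold in run 385, where sex also differs and Otc is X-linked, and 4.96-fold in run 440. In organoids Otc had 87.2 and 99.3 CPM in Eed KO, against 193.6 and 146.8 CPM in WT. This fell by 0.87 ± 0.16 on the log2 scale (edgeR adjusted p = 0.00985), and it passed in all alternatives, with adjusted p between 8.52e-05 and 0.0413.

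Nags, whose product N-acetylglutamate switches CPS1 on, had 5.23, 6.76 and 26.2 CPM in Eed KO crypts, against 35.7, 26.3 and 44.3 CPM in WT crypts. The run 440 Eed KO library almost reached the lowest WT library, which is of run 385. The log2 fold change was -1.80 ± 0.35, with falls of 5.17-fold within run 385 and 1.69-fold within run 440. In organoids Nags had 18.5 and 19.8 CPM in Eed KO, against 48.7 and 37.1 CPM in WT, and fell by 1.17 ± 0.17 on the log2 scale (edgeR adjusted p = 0.00442). It passed in all alternatives, with adjusted p between 1.27e-05 and 0.0172.

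Arg2, the mitochondrial arginase, followed Cps1 in crypts. It had 2.73, 5.33 and 33.3 CPM in Eed KO crypts, against 82.0, 38.6 and 81.5 CPM in WT crypts, a log2 fold change of -2.97 ± 0.58. The ratio was 14.96-fold within run 385 and 2.45-fold within run 440, again with the run 440 Eed KO library highest of its group. In organoids Arg2 had 67.3 and 48.0 CPM in Eed KO and 183.6 and 79.8 CPM in WT. The WT libraries were far apart, and the log2 fold change of -1.20 ± 0.45 did not pass (edgeR adjusted p = 0.176). With 1 organoid library left out, it ran from -1.66 without WT library 385_2 to -0.49 without WT library 385_1.

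Oat, which makes ornithine from an intermediate shared by proline and glutamate metabolism, was the other abundant transcript of the set. It had 795.3, 652.9 and 1100.2 CPM in Eed KO crypts, against 1743, 1339 and 1238 CPM in WT crypts. The ranges did not overlap, yet the gap was small in run 440, where the Eed KO value was 1.13-fold below WT, against 2.13-fold in run 385. The log2 fold change was -0.78 ± 0.23 in crypts. In organoids it was -0.39 ± 0.18 (edgeR adjusted p = 0.188), with 1161 and 1524 CPM in Eed KO and 1759 and 1766 CPM in WT.

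The cytosolic enzymes differed in direction from the mitochondrial ones or did not pass. Ass1, which joins citrulline to aspartate, had 26.6, 18.2 and 28.0 CPM in Eed KO crypts, against 12.5, 12.2 and 17.0 CPM in WT crypts. All Eed KO libraries were above all WT libraries, with a log2 fold change of 0.82 ± 0.19. In organoids Ass1 had 19.3 and 20.2 CPM in Eed KO, against 4.66 and 10.5 CPM in WT, and rose by 1.38 ± 0.36 on the log2 scale (edgeR adjusted p = 0.0454). That call was lost without the Eed KO organoid library 385_1 (adjusted p = 0.139), without 385_2 (0.132) and without the WT organoid library 385_1 (0.0600), all by edgeR, while the log2 fold change stayed between 0.89 and 2.09.

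Asl, which splits argininosuccinate to arginine, had 25.0, 27.2 and 39.2 CPM in Eed KO crypts, against 29.3, 27.1 and 45.0 CPM in WT crypts, and the groups overlapped. Its log2 fold changes were -0.14 ± 0.13 in crypts and -0.19 ± 0.13 in organoids, where the 95% interval ran from -0.50 to 0.12 (edgeR adjusted p = 0.402). Arg1, the liver arginase, was the lowest of the 8, at 37, 38 and 63 reads in Eed KO crypts against 17, 8 and 47 reads in WT crypts. These are 2.89, 3.21 and 3.70 CPM in Eed KO crypts and 1.51, 0.733 and 2.88 CPM in WT crypts. The lowest Eed KO value and the highest WT value were nearly equal, and in organoids 14 and 12 reads in Eed KO stood against 11 and 7 in WT (log2 fold change 0.53 ± 0.47, edgeR adjusted p = 0.515).

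Counted over the set, 5 of the 8 genes were past the threshold and lower in Eed KO crypts (Cps1, Otc, Nags, Arg2 and Oat), 1 was higher (Ass1) and 2 were not past it (Asl and Arg1). Of the 14406 genes tested in that comparison 24.0% were past the threshold, 13.4% higher and 10.6% lower. The median log2 fold change was -1.29 over the 8 genes and -0.04 over all genes tested. With same-numbered libraries of one run as a block, 2 of the 8 were past the threshold and lower (Cps1 at -5.47 ± 1.06 and Otc at -3.19 ± 0.51) and none was higher, among 1046 higher and 543 lower genes. Nags (-1.82 ± 0.42), Arg2 (-2.94 ± 0.72), Oat (-0.79 ± 0.28) and Ass1 (0.79 ± 0.22) were no longer past it with the block, at nearly the same log2 fold changes. Without the Eed KO library 385_1 or without the WT library 385_2, 0 of the 8 were higher and 4 were lower, with Ass1 and Oat no longer past it. Oat was also not past it without the Eed KO library 385_2 or the WT library 385_1. Without the Eed KO or without the WT library of run 440, 2 were higher (Ass1 and Arg1) and 5 lower. Nothing is read from these shares, since the crypt comparison chose the set. The groups did not overlap for 7 of the 8 genes, all but Asl, and for 30.6% of the 14406 genes tested.

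In Eed KO organoids, which did not choose the set, 2 of the 8 genes fell (Otc and Nags), 1 rose (Ass1) and 5 did not pass. Of 12958 genes tested, 18.2% were past the threshold, 13.5% higher and 4.63% lower. Under the alternatives 2 to 4 of the 8 genes were lower and 0 or 1 higher. The median log2 fold change was -0.54 over the 8 genes and -0.00466 over all. Eed KO and WT organoids did not overlap for any of the 8 genes, nor for 59.2% of the 12902 tested genes that are in both tables, so with 2 libraries in each group little is read from it. Sex and strain differ between these groups as genotype does, and their effects cannot be told apart, which bears on Otc as an X-linked gene.

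**Figure D2:**
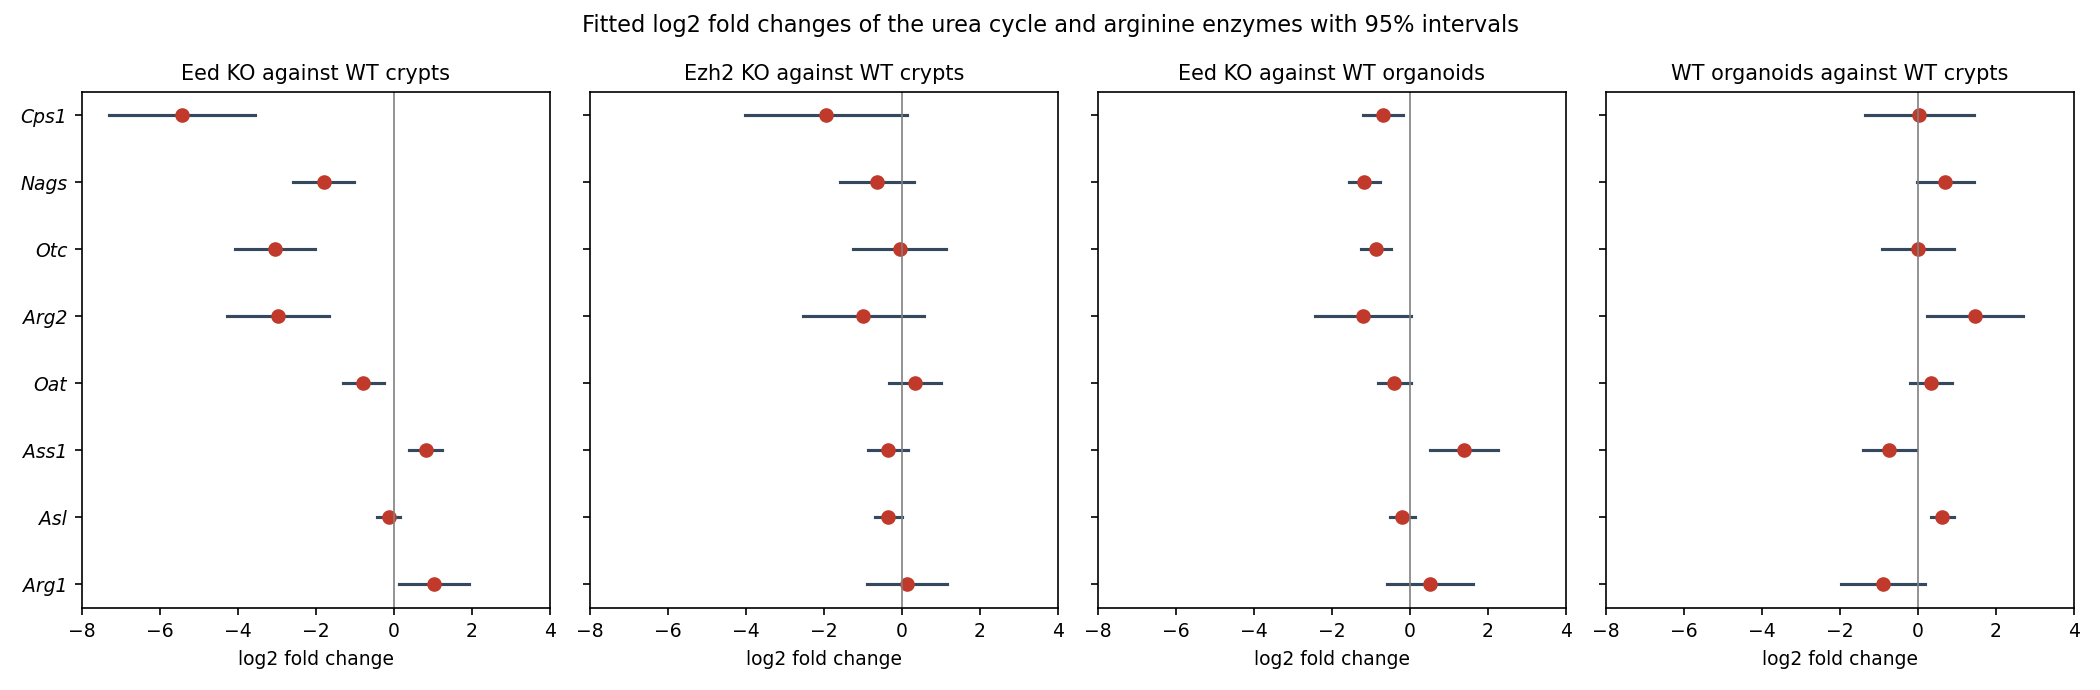
Log2 fold changes of the 8 enzymes in 4 comparisons, as fitted by edgeR (points) with 95% intervals (lines), the group named first over the other. The crypt and the organoid Eed comparisons have Cps1, Otc, Nags, Arg2 and Oat left of 0 and Ass1 right of it.

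In Ezh2 KO crypts none of the 8 genes passed the threshold, either by edgeR or by DESeq2, and 0 had an edgeR p under 0.05 before adjustment. By edgeR, 3 of 14406 genes (0.0208%) were past it, and 1179 stood under 0.05 before adjustment. The DESeq2 calls numbered 34 higher and 34 lower. All Ezh2 KO libraries are of run 440, which holds 1 WT library, so the fitted values lean on the run term. For Cps1 the fit gave -1.94 ± 0.91 (edgeR adjusted p = 0.614), although within run 440 the Ezh2 KO mean was 0.947 times the WT value. The run term for Cps1 is drawn in part from the Eed KO libraries, which differ widely between the runs. Without the WT crypt library 440_1 the fit called Cps1 (-3.84, adjusted p = 0.00214), Arg2 (-2.56, adjusted p = 0.0427) and Nags (-1.65, adjusted p = 0.0493), all by edgeR. Within run 440 Arg2 was 1.05 times and Nags 0.978 times the WT value. The fitted falls without that library are not matched inside the run and are not read as a result.

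Of the other genes, within run 440 the ratio of Ezh2 KO to WT ran from 0.766 for Ass1 to 1.60 for Oat. Otc had 170.4, 238.1 and 144.3 CPM in Ezh2 KO crypts and 143.9 in the WT crypt library of that run, a ratio of 1.28. Oat had 1722, 2104 and 2110.4 CPM in Ezh2 KO crypts, against 1238 in that WT library and 1743 at most in the other WT crypts, with a fitted log2 fold change of 0.34 ± 0.30 (edgeR adjusted p = 0.759). Asl was at 33.3 to 36.6 CPM in Ezh2 KO crypts and 27.1 to 45.0 CPM in WT crypts (log2 fold change -0.35 ± 0.15, edgeR adjusted p = 0.602). For all 8 genes the Ezh2 KO and WT crypts overlapped, and over all 14406 genes tested 20.0% did not overlap. The test of a difference between the Eed and Ezh2 effects was not made.

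WT organoids were compared with WT crypts to set the levels in culture beside those in tissue. Asl rose by 0.63 ± 0.13 on the log2 scale (edgeR adjusted p = 0.00486), with 41.6 and 46.5 CPM in WT organoids and 27.1 to 45.0 CPM in WT crypts, which overlapped through the WT crypt library of run 440. The call was lost without the WT organoid library 385_2 (edgeR adjusted p = 0.0519). Of 14761 genes 28.1% were past the threshold, 9.17% higher and 18.9% lower, and the median over all genes was -0.13. Arg2 stood at 79.8 and 183.6 CPM in WT organoids and 38.6 to 82.0 CPM in WT crypts, a log2 fold change of 1.47 ± 0.55 (edgeR adjusted p = 0.0705; with DESeq2 0.0287). Cps1 was 2933 ± 366.1 CPM in WT organoids (SD, n = 2) and 3786 ± 363.5 CPM in WT crypts (SD, n = 3). Its fitted value of 0.04 ± 0.63 (edgeR adjusted p = 0.977) turned to -0.41 with libraries of run 385 only (adjusted p = 0.324), so no direction is read. Strain and length of treatment also differ between these groups. In run 385 sex differs as well, with the female pattern in WT organoids and the male pattern in WT crypts. Within that run these effects cannot be told apart from that of culture.

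Ordered by level, Cps1 was highest in WT crypts, then Ezh2 KO crypts, WT organoids, Eed KO organoids and Eed KO crypts. Of the neighbours in that order, only Ezh2 KO and WT crypts overlapped. Otc and Nags shared the bottom of this order, with Eed KO organoids and then Eed KO crypts lowest, and their other 3 groups overlapped from one to the next. For Nags the 2 Eed KO groups overlapped too, and for Otc they did not. Ass1 ran the other way at the top, with Eed KO crypts at 24.3 ± 5.32 CPM and Eed KO organoids at 19.7 ± 0.64 CPM, which overlapped, above every other group.

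Per kilobase of the exon union, which joins all annotated exons of a gene, levels can be set roughly between genes. In WT crypts Cps1 led with 681.6 ± 65.4 CPM per kb, followed by Oat with 610.1 ± 113.3, and their ranges over the 3 libraries overlapped. Arg2 (47.2 ± 17.5) and Otc (41.3 ± 6.96) came next, then Nags (12.5 ± 3.17), Asl (6.99 ± 2.02), Ass1 (5.76 ± 1.10) and Arg1 (0.767 ± 0.488), all in CPM per kb. By this measure the mitochondrial enzymes had higher means in WT crypts than the cytosolic ones, with Nags and Asl overlapping by library. Before division by length Nags (35.4 CPM) and Asl (33.8 CPM) were nearly equal there. Their order thus rests on the exon unions used, of 2838 bases for Nags and 4831 for Asl. In Eed KO crypts Oat led with 359.9 ± 96.8 CPM per kb, and the means of Cps1 (36.2 ± 49.8), Ass1 (10.1 ± 2.20) and Arg2 (9.65 ± 11.9) came next. The place of Cps1 rests on the run 440 library, at 93.7 CPM per kb. In the Eed KO crypts of run 385 alone (n = 2) Cps1 averaged 7.48 CPM per kb, below Ass1 at 9.28, and Arg2 averaged 2.82. In Eed KO organoids the order of the first 4, Oat, Cps1, Arg2 and Otc, was that of WT organoids.

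The genes most like Cps1 were sought among 14760 others by the root mean square difference of their centred log2 CPM over the 13 libraries, which share the same Eed KO crypts. The 5 nearest were Slco2b1 (0.531), an organic anion carrier, Slc39a5 (0.579), a zinc carrier, Clca4b (0.661), Btnl1 (0.753), a butyrophilin-like protein of gut epithelium, and Pappa2 (0.787), a protease of growth factor binding proteins. Of the set, Arg2 ranked 9th (0.958), Otc 18th (1.07) and Nags 92nd (1.44). Oat ranked 592nd and Asl 2842nd, while Ass1 and Arg1 were at 11200 and 11517. Over the 9 crypt libraries 3 of the 5 nearest were kept, with Slc14a1 and P2ry4 taking the other places. In organoids Slco2b1 had 11.2 and 19.95 CPM in Eed KO, against 43.1 and 48.5 CPM in WT, a log2 fold change of -1.55 ± 0.27. Slc39a5 was at -0.88 ± 0.15 on the log2 scale. Clca4b stood at 321.2 ± 76.3 CPM in Eed KO organoids and 305.1 ± 3.48 CPM in WT organoids (SD, n = 2 each). These organoid values entered the choice of the genes, so they are a description with no test.

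**Figure D3:**
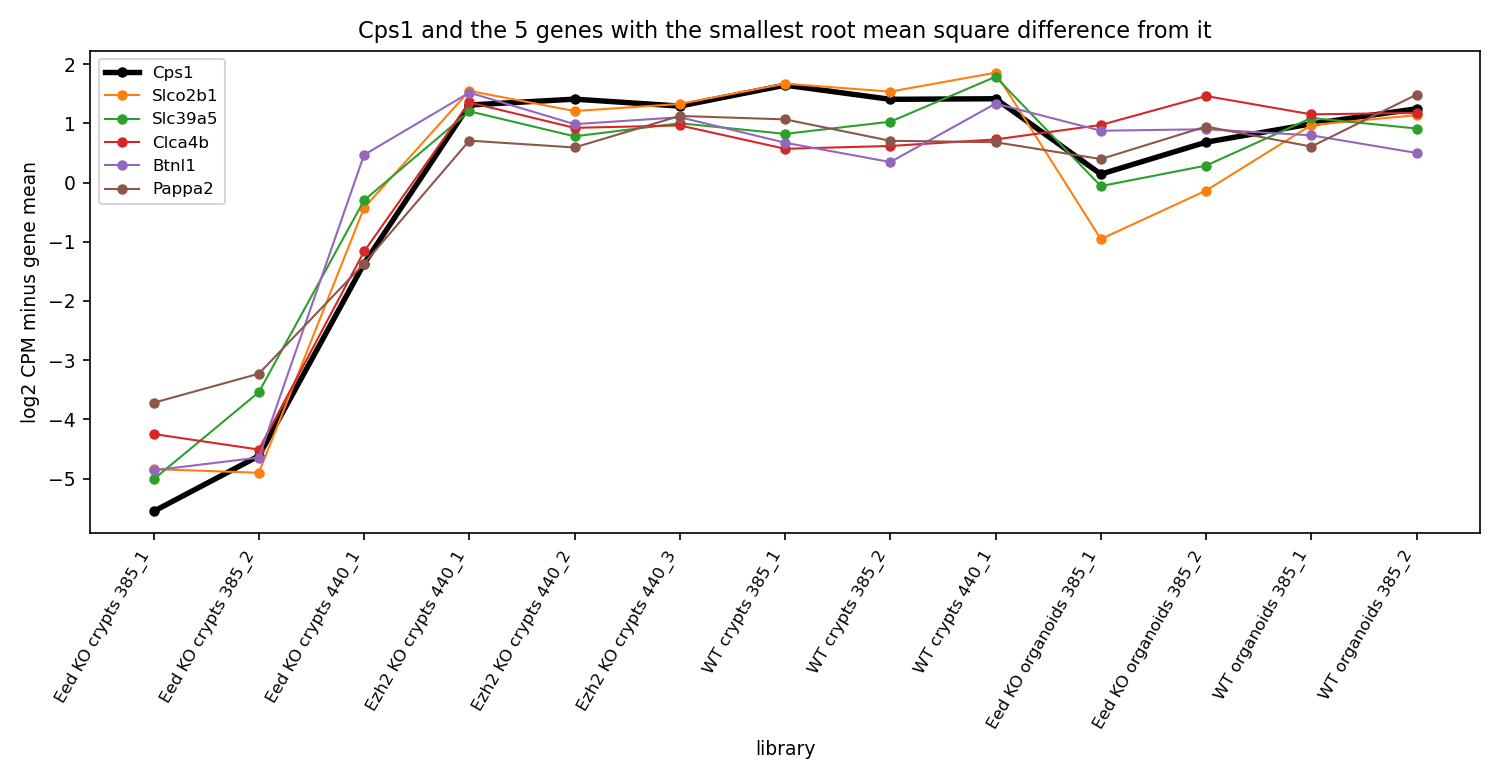
Log2 CPM minus each gene's own mean (vertical axis) in the 13 libraries (horizontal axis) for Cps1 (thick black line) and the 5 genes nearest to it. All 6 are lowest in the Eed KO crypts of run 385, and for all but Btnl1 the run 440 Eed KO library lies between them and the other crypts.

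Counts over the pathway lists stand beside the shares over all genes tested. These were 13.4% higher and 10.6% lower in Eed KO crypts, and 13.5% higher and 4.63% lower in Eed KO organoids. The list counts are given as a description. Among 23 genes of urea and ammonia transport and nitrogen supply, 18 were tested in crypts, of which 5 rose and 6 fell in Eed KO (median log2 fold change -0.03, beside -0.04 over all genes). In organoids 17 were tested, 2 rose and 4 fell (median -0.06). Slc14a1, the urea transporter UT-B, moved most. It averaged 2.46 ± 2.66 CPM in Eed KO crypts and 58.9 ± 18.3 CPM in WT crypts (SD, n = 3 each), and fell by 4.85 ± 0.47 on the log2 scale (edgeR adjusted p = 0.000341). In organoids it averaged 0.56 ± 0.11 CPM in Eed KO and 35.5 ± 3.35 CPM in WT (SD, n = 2 each), and fell by 5.96 ± 0.25 (edgeR adjusted p = 2.77e-05). Aqp3, an aquaporin that also passes glycerol and urea, rose by 4.44 ± 0.41 in crypts (edgeR adjusted p = 0.000266) and by 1.55 ± 0.33 in organoids (edgeR adjusted p = 0.0187, and 0.0627 without the Eed KO library 385_1). Car5b, a mitochondrial carbonic anhydrase, rose in both, by 2.12 ± 0.35 in crypts and 2.57 ± 0.59 in organoids (edgeR adjusted p = 0.00303 and 0.0235). Its organoid means were low, at 1.48 ± 0.29 CPM in Eed KO and 0.246 ± 0.136 CPM in WT (SD, n = 2 each). The organoid call was lost with DESeq2 (adjusted p = 0.0919), without the Eed KO library 385_2 (edgeR adjusted p = 0.107) and without the WT library 385_1 (edgeR adjusted p = 0.180). Slc38a5, a glutamine carrier, rose by 3.93 ± 0.81 in crypts (edgeR adjusted p = 0.00842, and 0.0689 with the replicate block). It was near the floor, at 1.79 ± 0.28 CPM in Eed KO crypts and 0.102 ± 0.177 CPM in WT crypts (SD, n = 3 each). With 1 crypt library left out the rise ran from 3.46 to 7.70, so its size is uncertain. Slc25a15, the mitochondrial ornithine carrier, lies outside the naming rule and was picked after its values were seen. Its log2 scale fall was 0.99 ± 0.17 in Eed KO crypts and 0.80 ± 0.15 in Eed KO organoids, given as a description with no test.

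Of 11 ornithine, proline and glutamate enzymes 10 were tested. In Eed KO crypts 1 rose and 4 fell (median -0.30), and in Eed KO organoids 2 rose and 1 fell (median 0.205). The single rise in crypts was Aldh4a1, which oxidises the proline breakdown product to glutamate, by 2.596 ± 0.34 on the log2 scale (edgeR adjusted p = 0.00107). In organoids it rose by 3.80 ± 0.32 (edgeR adjusted p = 0.000491), with 11.8 ± 1.45 CPM in Eed KO and 0.831 ± 0.206 CPM in WT (SD, n = 2 each). Prodh2, a hydroxyproline dehydrogenase, rose by 3.99 ± 0.49 in Eed KO organoids (edgeR adjusted p = 0.00218) and stood at 1.90 ± 0.902 CPM in Eed KO crypts against 3.82 ± 2.71 CPM in WT crypts (edgeR adjusted p = 0.522). Prodh, proline dehydrogenase, fell by 0.61 ± 0.16 in Eed KO crypts (edgeR adjusted p = 0.0263, 0.0776 with the replicate block and above 0.05 without any one of 5 of the 6 libraries), and Gpt, an alanine aminotransferase, by 0.85 ± 0.20 in Eed KO organoids (edgeR adjusted p = 0.0261, and above 0.05 without any one of 3 of the libraries, at most 0.146).

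Of 15 polyamine genes 13 were tested, with 5 higher and 1 lower in Eed KO crypts (median 0.16) and 1 higher and 1 lower in Eed KO organoids (median 0.08). Smox, spermine oxidase, rose by 1.44 ± 0.15 in crypts and 1.56 ± 0.18 in organoids (edgeR adjusted p = 0.000444 and 0.00154). Agmat, agmatinase, fell by 1.74 ± 0.19 in crypts and 1.56 ± 0.13 in organoids (edgeR adjusted p = 0.000494 and 0.000456). Sat1, which acetylates polyamines for export, rose by 1.08 ± 0.16 in crypts (edgeR adjusted p = 0.0018), and Azin2, an antizyme inhibitor, by 2.20 ± 0.51 (edgeR adjusted p = 0.0138, and 0.0552 without the Eed KO library 385_1). Azin2 was low, at 1.30 ± 0.53 CPM in Eed KO crypts and 0.285 ± 0.201 CPM in WT crypts (SD, n = 3 each).

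Of 17 genes of arginine uptake, nitric oxide and creatine 14 were tested. In Eed KO crypts 2 rose and 3 fell (median 0.355), and in Eed KO organoids 3 rose and none fell (median 0.15). Nos2, the inducible nitric oxide synthase that uses arginine, had 1.25, 1.35 and 14.8 CPM in Eed KO crypts, against 31.8, 35.3 and 25.5 CPM in WT crypts, and fell by 3.20 ± 0.86 on the log2 scale (edgeR adjusted p = 0.0278). That call was lost with the replicate block (adjusted p = 0.0922) and without either Eed KO library of run 385 or either WT library of run 385 (at most 0.156). In organoids Nos2 had 7.17 and 12.8 CPM in Eed KO, against 1.35 and 1.37 CPM in WT, a rise of 2.87 ± 0.39 (edgeR adjusted p = 0.00306). Slc7a2, a carrier of arginine and lysine, rose by 2.97 ± 0.40 in Eed KO organoids (edgeR adjusted p = 0.00304). Its means there were low, at 4.16 ± 0.25 CPM in Eed KO and 0.525 ± 0.105 CPM in WT organoids (SD, n = 2 each). Ddah1, which breaks down methylarginines, rose by 1.63 ± 0.46 in crypts (edgeR adjusted p = 0.0341, and 0.0715 with the replicate block). The Ddah1 call was lost in run 385 alone (edgeR adjusted p = 0.0557). It was also lost without any single library other than Eed KO library 385_2 (at most 0.171). Slc3a1, a subunit of a basic amino acid carrier, passed in 1 of the 4 comparisons, WT organoids against WT crypts (1.89 ± 0.45, edgeR adjusted p = 0.00947).

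Of 11 factors known in liver to bind or drive Cps1 or urea cycle genes 9 were tested, with 3 higher and 2 lower in Eed KO crypts (median -0.30). Hnf4a, a nuclear receptor of liver and gut epithelium, averaged 449.1 ± 205.4 CPM in Eed KO crypts and 1078 ± 105.4 CPM in WT crypts (SD, n = 3 each), and fell by 1.35 ± 0.23 (edgeR adjusted p = 0.0035). Nr3c1, the glucocorticoid receptor, averaged 54.7 ± 21.3 CPM in Eed KO crypts and 167.8 ± 46.1 CPM in WT crypts, and fell by 1.66 ± 0.25 (edgeR adjusted p = 0.00202). Foxa2 rose by 1.47 ± 0.22 (edgeR adjusted p = 0.00182) and Cebpb by 0.91 ± 0.24 (edgeR adjusted p = 0.026, 0.0682 with the replicate block and above 0.05 without any one of the 6 libraries). In organoids 1 of the 9 was higher and 1 lower (median -0.06). There Foxa2 rose by 0.68 ± 0.18 (edgeR adjusted p = 0.0399, 0.180 without the Eed KO library 385_1 and 0.202 without the WT library 385_1), while Hnf4a was at -0.54 ± 0.17 (edgeR adjusted p = 0.0755). In Ezh2 KO crypts none of the 64 tested genes of these 5 lists passed by edgeR or DESeq2, and 4 had an unadjusted p under 0.05.

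**Figure D4:**
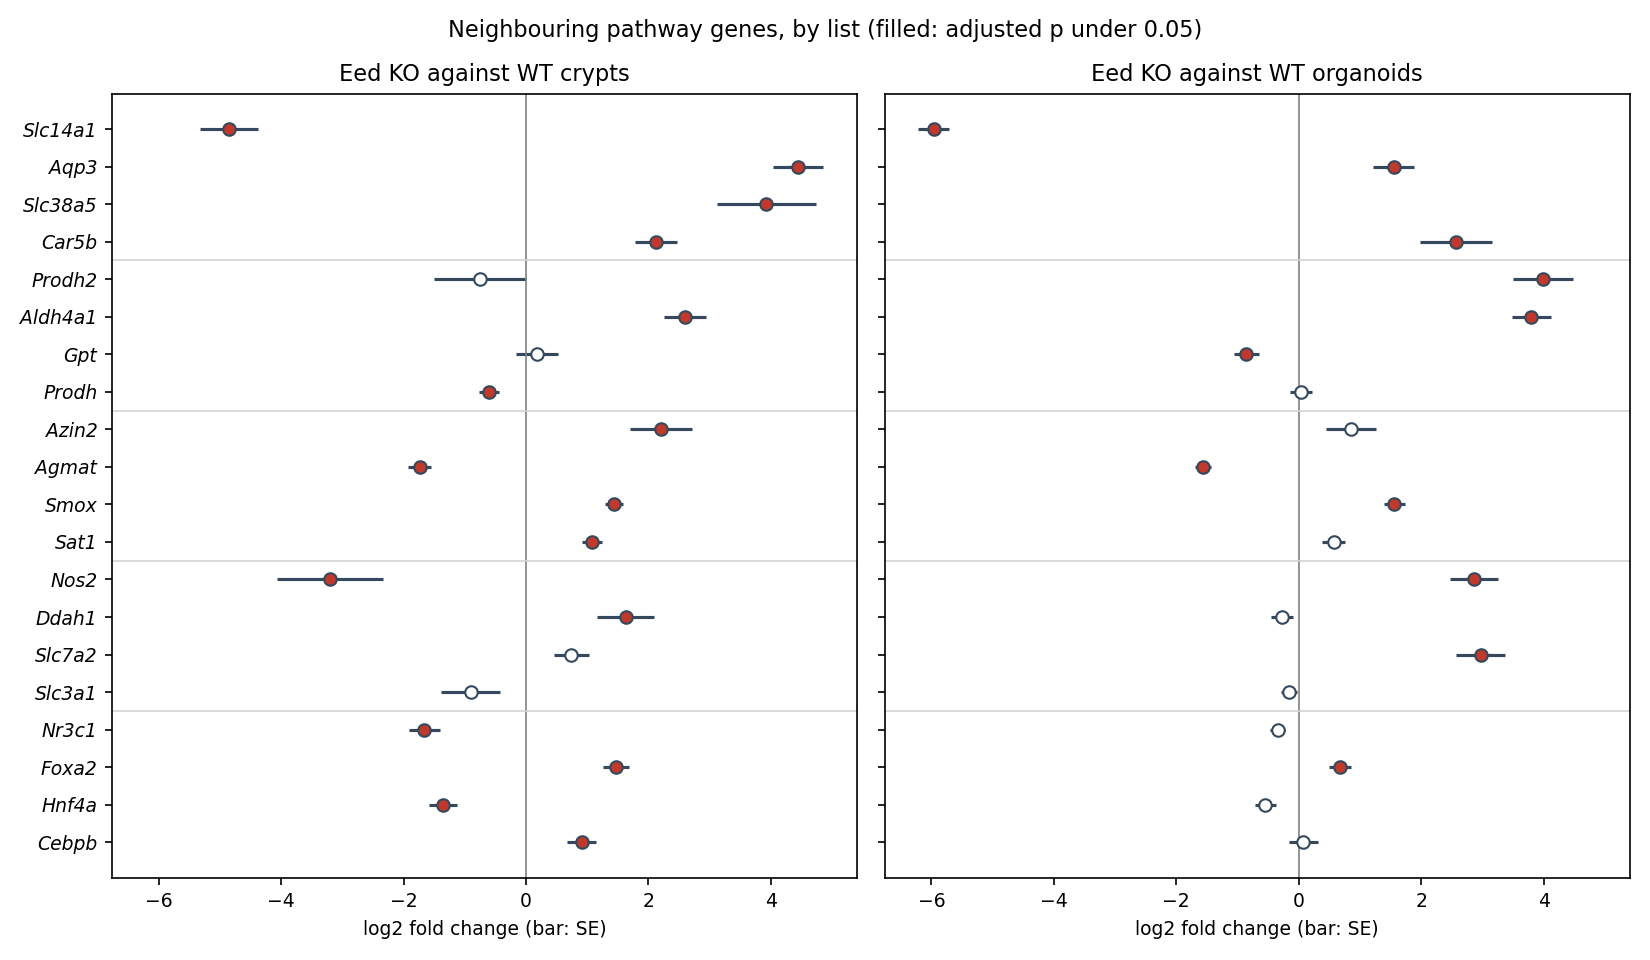
Log2 fold changes (points, bars are SE) of the 20 named pathway genes in Eed KO against WT crypts and organoids, in 5 blocks from urea transport at the top to transcription factors at the bottom. Filled points have an edgeR adjusted p under 0.05. Slc38a5 has no organoid point because it was not tested there, and Slc14a1 lies farthest left in both.

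The genes beside Cps1 did not fall with it as a block. Lancl1, 84153 bases before Cps1 and coding for a glutathione-binding protein, was at 0.25 ± 0.16 in Eed KO crypts (edgeR adjusted p = 0.305) and Acadl, an acyl-CoA dehydrogenase, at -0.57 ± 0.27 (edgeR adjusted p = 0.168). On the other side the nearest gene that passed the filter was Ikzf2, a zinc finger factor known from lymphocytes, 2299954 bases away. It rose by 3.18 ± 0.46 in Eed KO crypts (edgeR adjusted p = 0.00161) and by 4.49 ± 0.87 in Eed KO organoids (edgeR adjusted p = 0.0124, and 0.0959 without the WT library 385_1). Bard1, a DNA repair partner of BRCA1 3796238 bases away, fell by 1.81 ± 0.21 in Eed KO crypts (edgeR adjusted p = 0.000603).

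Cell type markers were also set beside genotype. In Eed KO crypts 24.0% of all genes tested were past the threshold, 13.4% higher and 10.6% lower. In Eed KO organoids the share was 18.2%, with 13.5% higher and 4.63% lower. Marker counts here and below that lie near these shares are not read as a result. The sum of 18 enterocyte markers was 1754, 1626 and 6505 CPM in Eed KO crypts (the last in run 440), against 4155, 2665 and 4896 CPM in WT crypts, with 1 of the 18 higher and 2 lower. The 2 Eed KO libraries with the least Cps1 thus also had the lowest enterocyte sums. In run 440 the Eed KO library had more enterocyte marker signal than the WT library, while its Cps1 was 6.90-fold lower. In organoids the enterocyte sum was 12090 and 13120 CPM in Eed KO, against 21430 and 14640 CPM in WT, with 2 markers higher and 4 lower. In WT organoids this sum stood above all WT crypts, while Cps1 did not.

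The sum of 12 crypt base stem cell markers was 2592 to 3247 CPM in Eed KO crypts and 6155 to 6986 CPM in WT crypts, with 1 higher and 6 lower. Olfm4 made up most of this gap, with means of 425.9 ± 180.7 CPM in Eed KO crypts and 3756 ± 98.1 in WT crypts. Means of Prom1 (502.5 against 221.2 CPM), Sox9 (191.4 against 112.3) and Smoc2 (306.9 against 288.8) were higher in Eed KO crypts, and those of the remaining markers were lower. The sum of 10 proliferation markers was 768.3 to 974.5 CPM in Eed KO crypts and 2091 to 2347 CPM in WT crypts, with 8 lower. Both sums were low in all 3 Eed KO libraries, whereas Cps1 differed widely among them. In organoids the stem cell sum was 4056 and 5186 CPM in Eed KO and 4359 and 4371 CPM in WT, and the proliferation sum 2046 and 2215 CPM in Eed KO and 2355 and 2434 CPM in WT. The sum of 8 Paneth cell markers was 21170 to 29190 CPM in Eed KO crypts and 80510 to 115200 CPM in WT crypts, lower in all 3 Eed KO libraries, with 3 of the 8 lower by edgeR. In organoids it was 6676 and 9814 CPM in Eed KO and 4572 and 5416 CPM in WT. In Eed KO crypts 1 of 7 goblet cell markers rose and 2 fell, and 1 of 8 enteroendocrine markers rose and 6 fell, by edgeR. In Eed KO organoids 5 of 8 Paneth cell markers rose and 1 fell, and 5 of 7 goblet, 4 of 8 enteroendocrine and 4 of 6 tuft cell markers rose. The part of these shifts in the enzyme results was not tested.

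Liver cells are the main site of this pathway, and 11 hepatocyte markers summed to 51.9 to 92.0 CPM in Eed KO crypts and 91.7 to 109.6 CPM in WT crypts, with Ahsg at 0 in WT crypts. Hpd made up most of the sum in WT crypts, with a mean of 77.7 ± 8.39 CPM, and Alb averaged 1.31 ± 0.26 CPM. Cps1 stood at 3563 to 4206 CPM there. The part of liver cells in the Cps1 values was not tested. Of the 8 markers tested, 1 was higher and 3 were lower in Eed KO crypts. Arginases are also made by macrophages. The 10 immune markers, of which 2 were higher and 2 lower in Eed KO crypts, summed to 314.3 to 538.2 CPM there and 553.2 to 1445 CPM in WT crypts. Cd74 made up most of these sums, with means of 329.8 ± 151.2 CPM in Eed KO crypts and 885.6 ± 452.8 in WT crypts. The mean of Itgam was also lower in Eed KO crypts. Means of the other immune markers were higher there or nearly equal, such as Ptprc (41.3 ± 32.1 CPM against 19.5 ± 4.88) and Laptm5 (22.8 ± 5.66 against 8.85 ± 0.60). In organoids the immune sum was 12.3 CPM at most in Eed KO and 6.84 at most in WT, where Ptprc, Adgre1 and Tyrobp were at 0. Arg2 was thus at 79.8 and 183.6 CPM in WT organoids that held almost no immune signal. Their part in the arginase values of crypts was not tested.

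**Figure D5:**
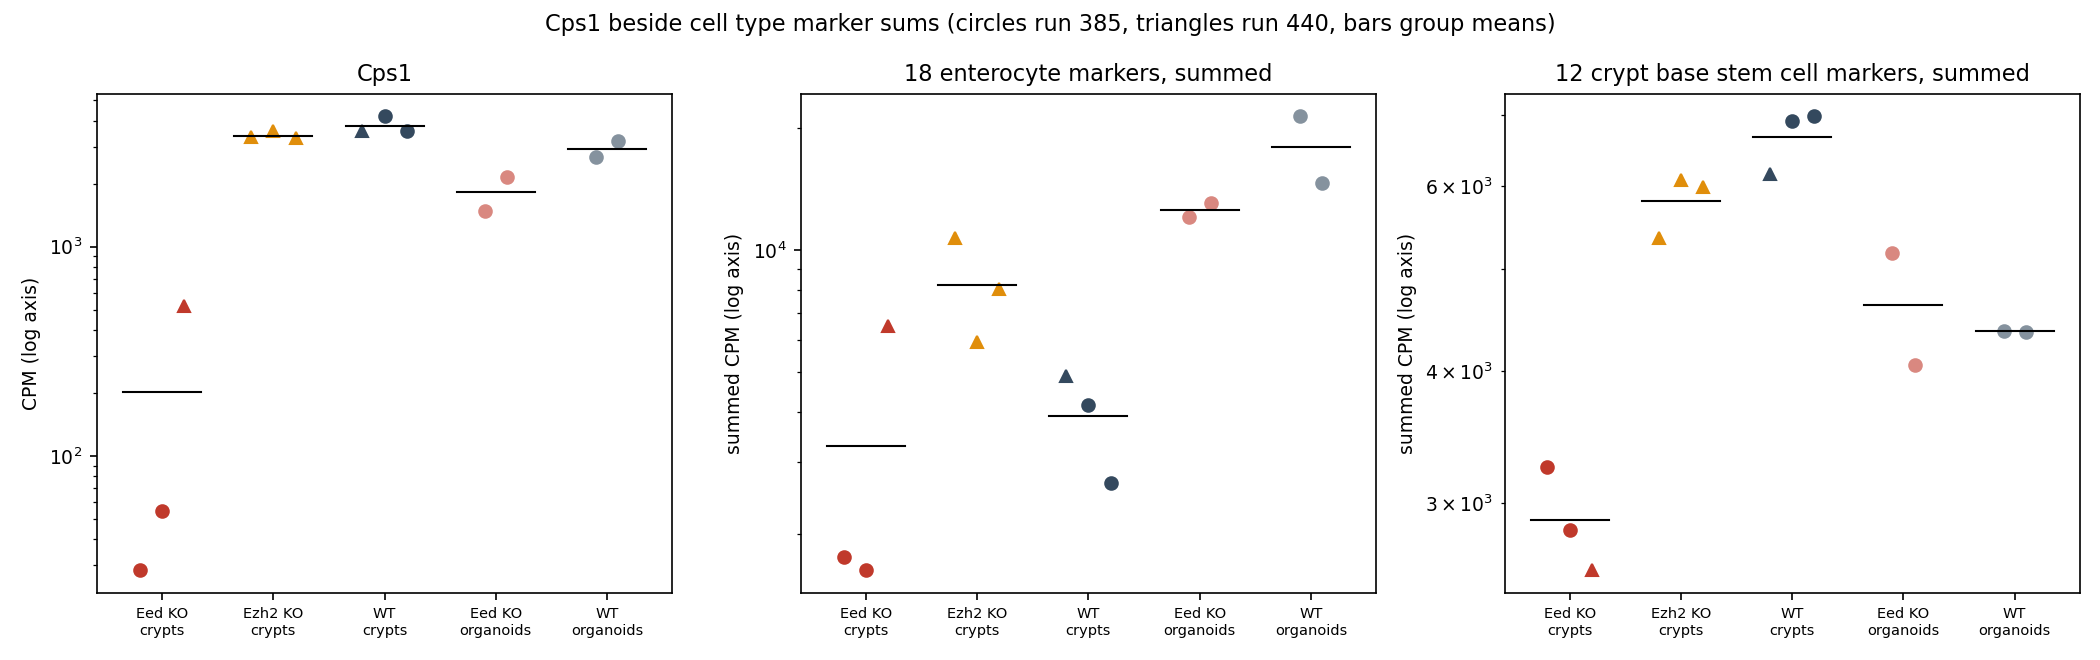
Cps1 (left), the sum of 18 enterocyte markers (middle) and the sum of 12 crypt base stem cell markers (right) in each library, in CPM on log axes, with circles for run 385, triangles for run 440 and bars for group means. The Eed KO crypt library of run 440 has an enterocyte sum of 6505 CPM, above all WT crypts, with 520.4 CPM of Cps1.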

How the data were processed

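RNA from 9 crypt and 4 organoid libraries was made into stranded TruSeq mRNA libraries, per the labels' protocols. Tables of raw read counts per gene were deposited, one for each run. The submitters' processing notes name TopHat2 2.0.12, Bowtie 0.12.9, HTSeq, DESeq2 and GRCm38. The tables held 23969 (run 385) and 22634 (run 440) genes and were joined by Ensembl ID. Genes outside the 21420 shared ones held at most 0.196% of a library's counts.

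The deposited counts were tested with edgeR 4.0.16 (R 4.3.3): trimmed mean normalization, the low-count filter by group (minimum count 10, total 15), robust quasi-likelihood fits and F tests, Benjamini-Hochberg adjustment over all genes tested and a threshold of 0.05. Crypt fits used all 9 crypt libraries with run as a term, organoid fits the 4 organoid libraries, and WT organoids against WT crypts all 13 with run as a term. Values for the likeness to Cps1 used a prior count of 2. Levels per kilobase used GENCODE M21 exon unions. DESeq2 1.42.0 and the other alternatives are given in the closing section. The fits were tested on simulated counts with 200 changed genes, in equal numbers 2-fold and 4-fold. Of the 2-fold changes they recovered 52 for Eed KO crypts, 28 for Ezh2 KO crypts, 37 for Eed KO organoids and 34 for WT organoids against WT crypts. Of the 4-fold changes they recovered 99 or 100. Most 2-fold changes could thus be missed in Ezh2 KO crypts and organoids. The simulation used 1 spread for all genes and no run effect, so recovery in these libraries can differ. Deviations of same-numbered Eed KO and WT crypt libraries from their group means correlated at 0.166 (385_1), 0.36 (385_2) and 0.329 (440_1). The group means span both runs, so these correlations include any run difference. Within run 385 the correlation was 0.145. Run 440, with a single Eed KO and a single WT crypt library, gives none. Whether same-numbered libraries are pairs is thus not shown, and the blocked fit is printed as an alternative where it changes a call. No libraries were duplicates.

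The 8 genes and the pathway and marker lists were chosen with earlier results of these data known. Named list genes are the up to 4 of each pathway list with the largest absolute log2 fold change among those past the threshold in any comparison, with the 5 genes nearest to Cps1 in profile and the 2 nearest filtered genes on each side of it. Depth limits Arg1, at 7 to 63 counts. Low WT means also limit the fold changes of some named list genes, such as Slc38a5, Azin2, Car5b, Prodh2 and Slc7a2.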

Additional observations from a re-analysis of the deposited data

Results flagged for a closer look

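Among 71 genes of the enzyme and pathway lists compared in crypts and organoids, 3 had every Eed KO crypt library on one side of all WT crypts and every Eed KO organoid library on the other side of all WT organoids. Of these, Nos2 passed the threshold in both, Gpt2 in crypts alone (edgeR adjusted p = 0.0109, and 0.409 in organoids) and Sms in neither (0.0545 in crypts and 0.404 in organoids). The differences between the effects were not tested. Over all genes tested the groups did not overlap for 30.6% in crypts and for 59.2% in organoids. The share of all genes that did so in opposite directions was not counted, so nothing is read from the number of genes found. Nos2 had a log2 fold change of -3.20 in Eed KO crypts and 2.87 in Eed KO organoids, with the values by library given above. Gpt2, a mitochondrial alanine aminotransferase, had -0.797 in crypts and 0.372 in organoids. It stood at 16.8, 20.2 and 20.3 CPM in Eed KO crypts against 29.3 to 36.7 CPM in WT crypts, and at 18.01 and 17.9 CPM in Eed KO organoids against 10.2 and 17.6 CPM in WT organoids. Sms, spermine synthase, had -0.497 in crypts and 0.195 in organoids, with 24.8, 28.9 and 25.2 CPM in Eed KO crypts against 32.0 to 41.5 CPM in WT crypts, and 49.96 and 42.15 CPM in Eed KO organoids against 41.4 and 38.9 CPM in WT organoids.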

How the results depend on the processing

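Over all settings, 296 values of the 8 genes were unchanged. For Eed KO against WT crypts this means the same direction and a move within the library spread, whatever the side of the threshold. For the other comparisons it means the same direction and the same side of the threshold. In those, 16 values newly passed the threshold, 4 no longer did and 20 turned direction. For Eed KO against WT crypts, 7 log2 fold changes moved by more than the library spread, 5 of them within run 440 (Cps1 -2.66, Oat -0.04). Calls lost in that comparison are outside these counts, such as those of Nags, Arg2 and Oat with no run term. For Eed KO against WT crypts, genes lower numbered 730 with no run term (2 of the 8 genes lower) and 999 without the Ezh2 KO libraries. With the replicate block there were 1046 genes higher and 543 lower, with 0 of the 8 higher and 2 lower, and within run 440, with 1 library each and the spread taken from the Ezh2 KO libraries, 868 and 406, with 0 and 2. Leaving out 1 library at a time gave 1289 to 2433 genes higher and 804 to 1939 lower, with 0 to 2 of the 8 higher and 4 to 5 lower. Genes lower numbered 804 without Eed KO library 385_1, 950 without WT library 385_1 and 851 without WT library 385_2. For Ezh2 KO against WT crypts, DESeq2 gave 34 higher and 34 lower, no low-count filter 3 and 5, no run term 2 higher, and run 440 alone 1 and 1. Leaving out 1 library gave 0 to 254 higher and 1 to 259 lower, with 0 to 3 of the 8 lower, the highest each time without WT crypt library 440_1. Directions turned with no run term for Otc (0.068), Nags (0.29), Asl (0.034) and Arg2 (0.34), and in run 440 alone for Otc (0.40), Nags (0.0098), Arg1 (-0.14) and Arg2 (0.11). With 1 library left out the log2 fold change ran from -0.77 to 0.089 for Otc, from -0.015 to 0.89 for Arg1 and from -0.25 to 0.43 for Oat. For Eed KO against WT organoids, whose 2 pairs are too few to show a pairing, the replicate block gave 1441 genes and 4 of the 8 lower, Cps1 (adjusted p = 0.00206) and Arg2 (0.0075) added. Leaving out 1 library gave 1084 to 1583 genes higher and 255 to 685 lower, with 0 to 1 of the 8 higher and 2 to 4 lower. Genes lower numbered 350 without Eed KO library 385_1 and 255 without WT library 385_1. With no low-count filter Cps1 had an adjusted p of 0.0217. For WT organoids against WT crypts, where same numbers share no deviation (correlations of -0.00046 and 0.00826), DESeq2 gave 2 of the 8 higher, and the replicate block 2458 genes and 3 of the 8 higher. Cps1 turned to -0.41 and Otc to -0.17 in run 385 alone, and to -0.38 and -0.16 with the block. Leaving out 1 library gave 769 to 1749 genes higher and 1315 to 2620 lower, with 0 to 3 of the 8 higher and 0 to 1 lower, Cps1 from -0.34 to 0.53 and Otc from -0.21 to 0.28. The causes of these turns were not tested. Of the called genes outside the set, 326 values stayed past the threshold, 56 did not and none reversed. Arg1, at 7 to 63 reads, is limited by depth, and the organoid comparisons by 2 libraries a group.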
